A study of Mus musculus with 48 samples.

Results

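The genes described here are 37 members of the machinery of synaptic transmission: 8 vesicle proteins, 3 calcium sensors, 7 members of the fusion machinery, 3 transporters that load transmitter into vesicles, 5 active zone genes, 3 adhesion genes and 8 postsynaptic scaffold genes. They were chosen by symbol, and all 37 had a measured probe in both tissues, out of 16261 named genes that did. The arrays came from heterozygous male APPswe/PS1dE9 mice on a C57Bl6/J background (APP/PS1), a model of amyloid deposition, and from their wild-type (WT) littermates. Each genotype drank either plain water (H2O) or water with MSX-3 at 0.3 g/L, a soluble prodrug of MSX-2, which enters the brain and blocks the adenosine receptor A2AR, until 9 to 10 months of age. Cortex and hippocampus of the same 24 mice were hybridised to one-colour Agilent arrays, 6 mice per genotype and agent. In this line the transgenes are driven by the mouse prion protein promoter, so that they are expressed broadly in the brain from early in life and differ from human disease in timing and level. The comparisons ask whether the transgenes, the drug and the brain region change the levels of these transcripts.

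At a chemical synapse, vesicles filled with transmitter are held at the active zone by scaffold proteins and primed for release. SNARE proteins of the vesicle and the plasma membrane then draw the membranes together, complexins clamp and assist them, and synaptotagmins trigger fusion when calcium enters. Across the cleft, neurexins and neuroligins bind each other, and scaffold proteins of the postsynaptic density hold the receptors in place.

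2 cortex arrays, 1 of WT H2O mice and 1 of WT MSX-3 mice, carried the scanner's own mark that the spot grid had not been found and were left out, which left 46 arrays with 5 mice in each of those groups and 6 in every other group. All values below are log2 levels, the log2 of the processed intensity minus that of the array's 75th percentile, so that 0 is the 75th percentile of the array. This percentile lay between 531 and 1073 intensity units, and 55.8% to 75.5% of the spots of an array were well above background. The number of arrays limits the precision. Prnp, the prion gene whose promoter vector carries the transgenes, lay between 5.13 and 5.61 in the WT arrays and between 7.01 and 7.57 in the APP/PS1 arrays, so that each array matched its genotype label. The mean of 5 cortical markers lay between 1.81 and 2.33 in cortex and between -0.52 and 0.20 in hippocampus, and the mean of 6 hippocampal markers ran from -1.86 to -1.33 in cortex and from 1.28 to 1.96 in hippocampus. There were 7 slides and 2 scan days, and the genotypes were spread unequally over the days: day 1 held 5 of 6 APP/PS1 cortex arrays on H2O and 6 of 6 under MSX-3, against 2 of 5 and 3 of 5 WT cortex arrays. In hippocampus it held 6 of 6 APP/PS1 and 2 of 6 WT arrays on H2O, and 4 of 6 of each genotype under MSX-3.

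The brain region was the factor along which these genes differed most. Of the 37 members, 23 were higher in cortex and 4 were lower on their brightest probe, 2 of them, Pclo and Snap25, with another probe that passed in the opposite direction (adjusted p under 0.05, limma with Benjamini-Hochberg adjustment over all probes). The same threshold was passed by 54.5% of all probes, 23.7% higher and 30.8% lower in cortex, so that passing it is common in this comparison. With a fold change of at least 1.5 as well, which will be named a call, 9 of 37 members were called against 14.8% of all probes. The members are counted by 1 probe per gene, and the shares cover every kept probe. The median member was 0.22 higher in cortex on the log2 scale, and the median of all genes was -0.01. In tissue arrays, fewer cells of a type and less RNA per cell cannot be told apart. The plot of the tissue difference by member shows all 37 values.

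**Figure D1:**
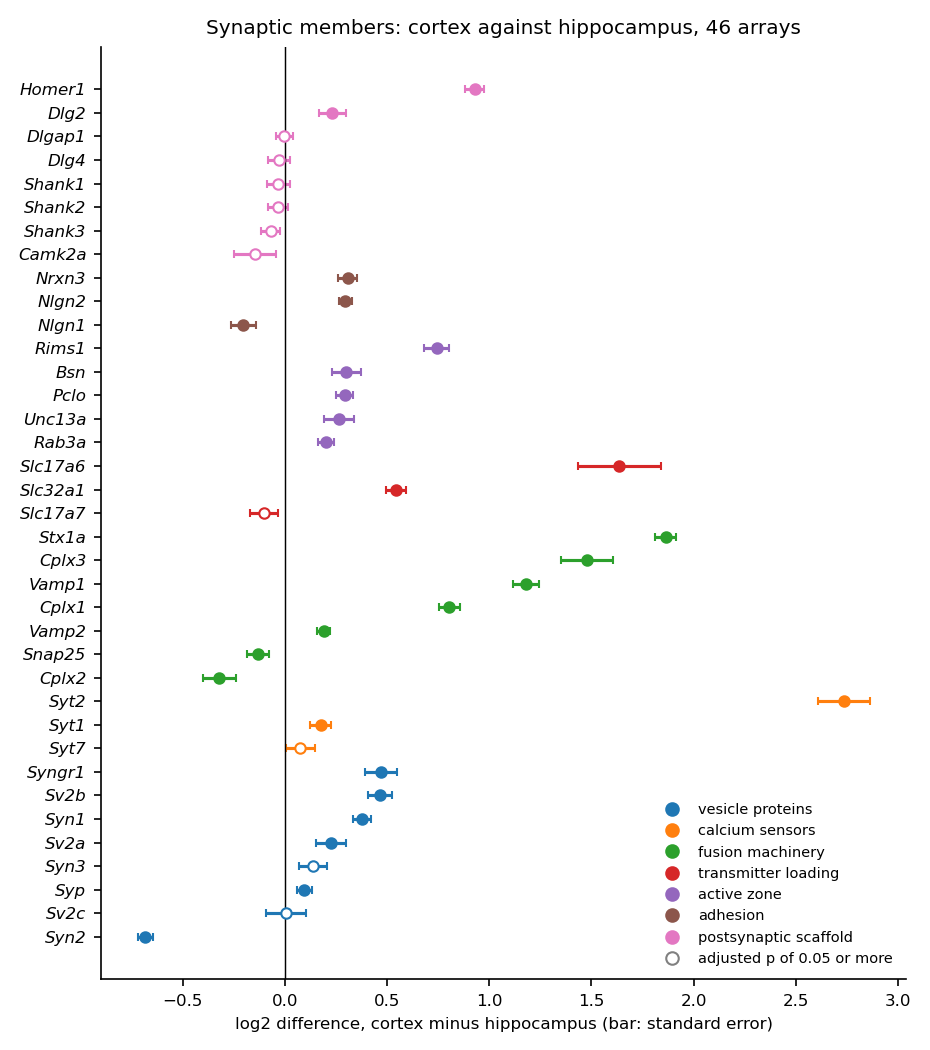
Log2 difference between cortex and hippocampus for the 37 members, with the standard error as a bar, over 22 cortex and 24 hippocampus arrays. Colours give the role of the gene and open circles an adjusted p of 0.05 or more; Syt2 at 2.74 is farthest to the right and Syn2 at -0.68 farthest to the left.

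The promoters of 4 members are shown because these genes stand out in the array results, none of which uses the sequences. Stx1a had the smallest adjusted p between the tissues, and Syn2 was the member that went furthest the other way. Syngr1 and Rims1 were the members with a probe that differed between the genotypes. Each window holds the 250 bases before the transcript's start in RefSeq (GRCm38.p6), 5′ to 3′ on the gene's strand, with matches to the GC box (GGGCGG or CCGCCC) and to the core of the cAMP response element (TGACG or CGTCA) in capitals. The windows lie at chr5:135023232-135023481 on the + strand for Stx1a, at chr6:115134652-115134901 on the + strand for Syn2, at chr15:80091084-80091333 on the + strand for Syngr1 and at chr1:22806159-22806408 on the - strand for Rims1.
Stx1a: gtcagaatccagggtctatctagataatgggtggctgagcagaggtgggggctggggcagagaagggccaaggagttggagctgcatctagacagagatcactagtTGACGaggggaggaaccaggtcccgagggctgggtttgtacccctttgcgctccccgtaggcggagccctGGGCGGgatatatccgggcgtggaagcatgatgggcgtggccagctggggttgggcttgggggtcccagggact
Syn2: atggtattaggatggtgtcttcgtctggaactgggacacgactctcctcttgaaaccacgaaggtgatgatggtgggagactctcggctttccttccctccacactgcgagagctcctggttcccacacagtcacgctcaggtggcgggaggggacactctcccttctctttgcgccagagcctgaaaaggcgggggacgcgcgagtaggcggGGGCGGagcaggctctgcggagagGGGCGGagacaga
Syngr1: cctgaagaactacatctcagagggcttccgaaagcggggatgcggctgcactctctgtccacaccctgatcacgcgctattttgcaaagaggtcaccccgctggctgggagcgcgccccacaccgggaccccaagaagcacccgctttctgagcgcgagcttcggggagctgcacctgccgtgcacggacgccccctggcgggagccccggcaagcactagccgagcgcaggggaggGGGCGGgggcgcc
Rims1: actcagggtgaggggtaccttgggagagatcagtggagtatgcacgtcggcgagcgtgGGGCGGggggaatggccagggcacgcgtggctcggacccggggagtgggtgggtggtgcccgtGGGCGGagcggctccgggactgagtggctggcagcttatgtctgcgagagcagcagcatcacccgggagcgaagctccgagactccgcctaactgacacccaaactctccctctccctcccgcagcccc

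All 4 windows hold a GC box, Syn2 and Rims1 hold 2 of them, and the Stx1a window alone of these 4 holds a cAMP response core. Syn2 has another window, at another start, which is not printed and holds 0 GC boxes. Promoter windows were found for 30 of the 37 members, 47 windows in all. A GC box occurred in 42.6% of them and in 32.7% of all 32851 windows of the same length, the cAMP response core in 17.0% and 17.8%, and the TATA box (TATAAA or TTTATA) in 6.38% and 12.4%. The median GC content was 56.8% in the members' windows and 52.4% in all windows. A match is a run of letters and not a shown binding site.

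Among the fusion machinery, 5 of 7 genes were higher in cortex on their brightest probe and 2, Cplx2 and Snap25, were lower, of which Snap25 had another probe that was higher. Stx1a, the syntaxin of the presynaptic plasma membrane, had a lowest, median and highest level of 2.79, 3.13 and 3.40 in the 22 cortex arrays and of 0.999, 1.31 and 1.51 in the 24 hippocampus arrays. The tissues did not overlap, and cortex was higher in 22 of 22 mice with both arrays. The difference was 1.86 (SE 0.05, adjusted p = 3.29e-30), a 3.64-fold higher level, and its mean over mice lay between 1.78 and 1.98 in the 4 groups of genotype and agent. Vamp1, a vesicle SNARE typical of fast-firing neurons, ranged from 2.30 over 2.98 to 3.37 in cortex and from 1.47 over 1.74 to 2.25 in hippocampus, again without overlap. It was 1.18 higher in cortex (SE 0.06, adjusted p = 6.97e-20), while Vamp2, the main vesicle SNARE of the forebrain, was 0.19 higher (SE 0.03, adjusted p = 1.36e-06).

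The complexins, which bind the assembled SNARE complex, went in different directions. Cplx1 ranged from 4.73 over 5.29 to 5.55 in cortex and from 4.12 over 4.44 to 4.71 in hippocampus. Cplx3 ranged from -2.84 over -2.09 to -1.23 and from -4.15 over -3.55 to -3.02. Neither gene had a hippocampus array as high as the lowest cortex array, and cortex was higher by 0.80 (SE 0.05, adjusted p = 9.45e-18) for Cplx1 and by 1.48 (SE 0.13, adjusted p = 1.89e-13) for Cplx3. Cplx2 was 0.32 lower in cortex on its brightest probe (log2 difference -0.32, SE 0.08, adjusted p = 0.00065) and 0.07 higher on its other probe (adjusted p = 0.574). Snap25, the SNARE of the plasma membrane that pairs with syntaxin, differed by -0.13 (SE 0.05, adjusted p = 0.0357) on its brightest probe, listed under NM_001291056, and by 0.78 (SE 0.08, adjusted p = 4.2e-11) on the probe listed under NM_011428. Which transcripts each probe reads was not tested, so no single direction is given for Snap25.

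Of the calcium sensors, Syt2, the fast synaptotagmin of inhibitory and hindbrain terminals, had the largest difference of all members on the processed signal, but not with normexp background correction, where it was 1.27 against 1.82 for Stx1a. Its level ranged from -3.13 over -2.28 to -1.89 in cortex and from -6.08 over -4.99 to -4.20 in hippocampus, with no overlap. Cortex was 2.74 higher (SE 0.13, adjusted p = 3.18e-22), in 22 of 22 mice. In hippocampus the probe was well above background on 1 of 6 WT H2O, 5 of 6 WT MSX-3, 3 of 6 APP/PS1 H2O and 4 of 6 APP/PS1 MSX-3 arrays, so that the size of the difference rests on signal close to background. For Cplx3, which is also dim, the difference with normexp was 0.86. Syt1, the fast sensor of most forebrain synapses, was 0.17 higher in cortex (SE 0.05, adjusted p = 0.00531). Syt7, a slow high-affinity sensor, differed by 0.08, with an approximate 95% interval of -0.07 to 0.22.

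**Figure D2:**
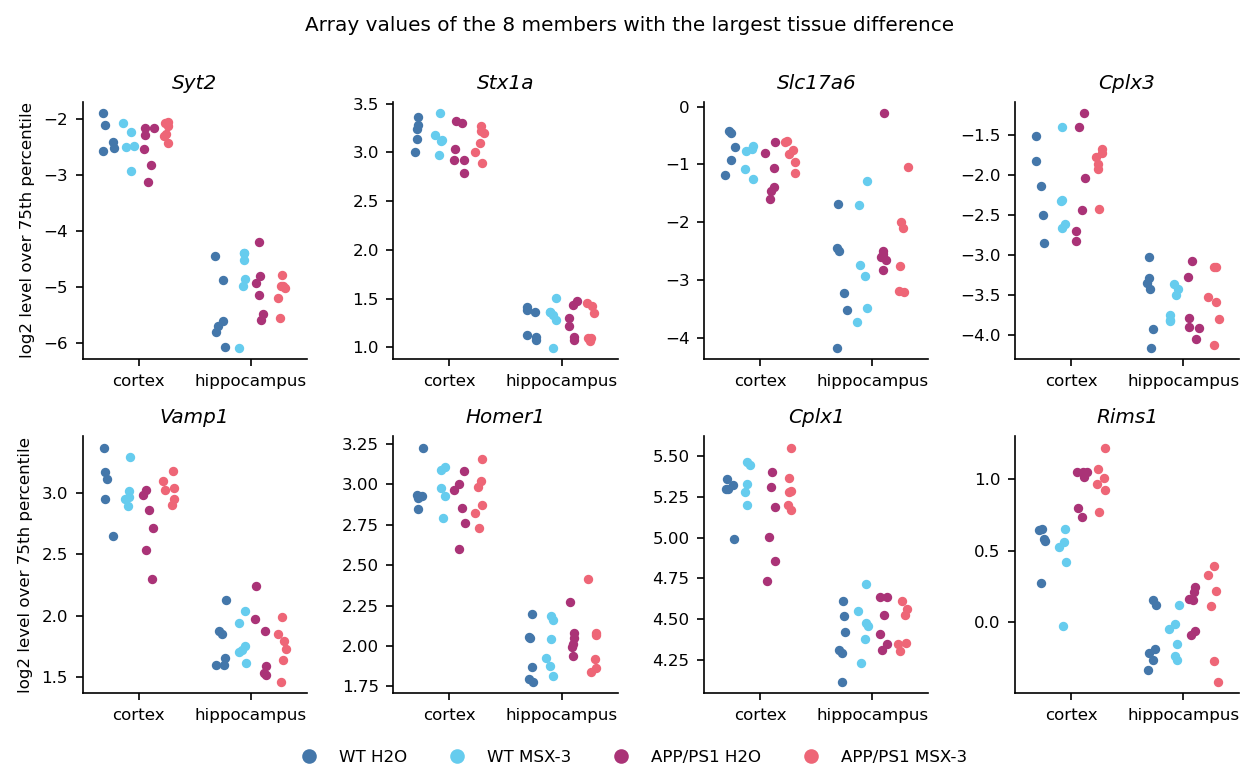
Log2 level over the array's 75th percentile for the 8 members with the largest tissue difference, 1 point per array, in the 4 groups of each tissue. The cortex points lie above the hippocampus points in Syt2, Stx1a, Cplx3, Vamp1, Homer1 and Cplx1 without overlap, while in Slc17a6 and Rims1 some arrays overlap.

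Of the 3 transporters that fill vesicles, Slc17a6 and Slc32a1 were higher in cortex and Slc17a7 did not pass. Slc17a6 encodes VGLUT2, the vesicular glutamate transporter typical of thalamic neurons, and ranged from -1.60 over -0.80 to -0.43 in cortex and from -4.17 over -2.62 to -0.12 in hippocampus. The ranges overlapped, since 3 hippocampus arrays, at -0.12, -1.04 and -1.28, lay above the lowest cortex array, and cortex was higher in 21 of 22 mice. The difference was 1.64 (SE 0.20, adjusted p = 4.1e-09). It was 1.72 without the mouse of the highest hippocampus array and 1.15 with normexp background correction. Slc32a1, the vesicular transporter for GABA, was 0.54 higher in cortex (SE 0.05, adjusted p = 5.52e-13) in 22 of 22 mice. Slc17a7 encodes VGLUT1, the transporter of cortical and hippocampal pyramidal cells, and differed by -0.10, with an interval of -0.24 to 0.03 that includes 0.

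The mouse behind the highest Slc17a6 value in hippocampus was APP/PS1 H2O mouse 261, at -0.12, whereas the other 5 arrays of its group lay between -2.82 and -2.49. The mean of 5 thalamic marker genes was 1.33 on that array, the highest of the 24, and 0.71 on the array of APP/PS1 MSX-3 mouse 283, which had the next highest Slc17a6 level at -1.04. On the other 22 hippocampus arrays the thalamic mean did not exceed -0.01. Next highest in Slc17a6 were WT MSX-3 mouse 298, at -1.28, and WT H2O mouse 310, at -1.68. Their thalamic means were -0.67 and -0.73. With the group means removed, Slc17a6 and the thalamic mean had a Pearson correlation of 0.60 over the 24 hippocampus arrays, which share slides and dissection, and Syt2 had 0.28. The part of these markers in the Slc17a6 level was not tested.

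**Figure D3:**
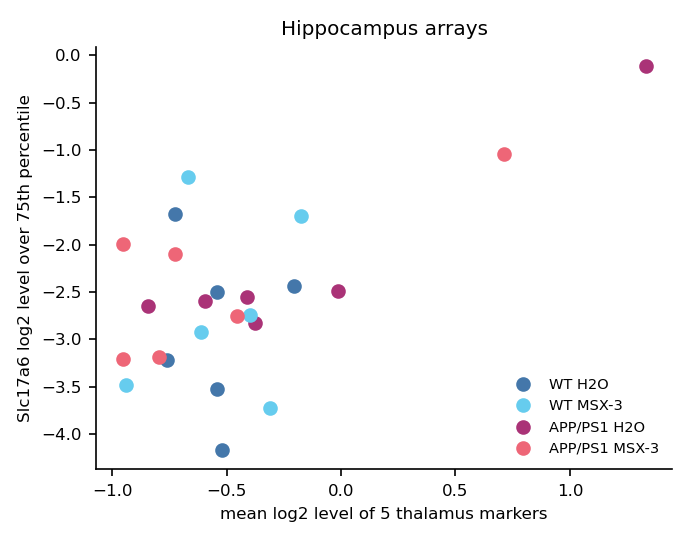
Slc17a6 log2 level against the mean log2 level of 5 thalamus markers in the 24 hippocampus arrays, 1 point per array, coloured by genotype and agent. The arrays of mice 261 and 283 stand at the upper right, at marker means of 1.33 and 0.71.

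The active zone genes were all higher in cortex, 5 of 5. Rims1, which tethers calcium channels and vesicles at the release site, ranged from -0.03 over 0.75 to 1.22 in cortex and from -0.42 over -0.03 to 0.39 in hippocampus. Its difference was 0.74 (SE 0.06, adjusted p = 3.61e-14), cortex was higher in 22 of 22 mice, and the lowest cortex array lay within the hippocampus range. The large scaffold proteins Bsn and Pclo were 0.30 and 0.29 higher (adjusted p = 0.000374 and 3.61e-08), the priming factor Unc13a 0.26 higher (adjusted p = 0.00209) and the vesicle GTPase Rab3a 0.20 higher (adjusted p = 1.52e-05). Pclo had 3 probes, of which 2 were higher in cortex and the one listed under NM_011995 was lower, at -0.16 (adjusted p = 0.0139).

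Of the vesicle proteins, 5 of 8 were higher in cortex and Syn2 was lower. Syn2 is a synapsin, a family that ties vesicles to each other and to actin in the reserve pool, and ranged from 4.97 over 5.19 to 5.52 in cortex and from 5.64 over 5.85 to 6.13 in hippocampus. The tissues did not overlap, cortex was higher in 0 of 22 mice, and the difference was -0.68 (SE 0.04, adjusted p = 1.29e-19). The other Syn2 probe differed by -1.03 (adjusted p = 2.61e-21), in the same direction. Its relative Syn1 was 0.38 higher in cortex (SE 0.05, adjusted p = 1.27e-09), and Syn3 differed by 0.14 (adjusted p = 0.094). Sv2b and Sv2a, transporter-like vesicle glycoproteins, were 0.47 and 0.22 higher (adjusted p = 6.18e-09 and 0.00984), Sv2c differed by 0.00 with an interval of -0.18 to 0.19, and the vesicle membrane proteins Syngr1 and Syp were 0.47 and 0.09 higher (adjusted p = 1.55e-06 and 0.0319).

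Of the 8 postsynaptic scaffold genes, 2 were higher in cortex on their brightest probe, and the median of the 8 was -0.03. Homer1, which links metabotropic glutamate receptors to internal calcium stores, ranged from 2.60 over 2.93 to 3.23 in cortex and from 1.78 over 2.03 to 2.42 in hippocampus, without overlap. It was 0.93 higher (SE 0.05, adjusted p = 2.8e-20), and its 3 probes gave 0.93 to 1.09. Dlg2, a relative of PSD-95, was 0.23 higher (adjusted p = 0.00358). Its 4 probes ran from -0.11 to 0.23, and only this 1 passed. The other 6 did not pass on their brightest probe: Dlg4, which encodes PSD-95, differed by -0.03, Dlgap1 by 0.00, Shank1 by -0.03, Shank2 by -0.04, Shank3 by -0.07 and the kinase subunit Camk2a by -0.15. The intervals of these 6 lay within -0.35 and 0.08. Other probes of 3 of them did pass and were lower in cortex: Dlg4 at -0.23 and -0.27, Shank3 at -0.54 and -0.44, and Camk2a at -0.40. Of the adhesion genes, Nrxn3, a presynaptic neurexin, and Nlgn2, the neuroligin of inhibitory synapses, were 0.31 and 0.30 higher in cortex (adjusted p = 2.12e-07 and 7.92e-11), and Nlgn1, the neuroligin of excitatory synapses, was 0.20 lower (log2 difference -0.20, adjusted p = 0.00446).

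Probes of 1 gene thus did not always go together. 18 members had a single probe, 8 had probes that were all higher in cortex, 4 had probes that were all lower, 5 had probes of both signs with at most 1 direction passing, and 2, Snap25 and Pclo, had probes that passed in opposite directions. Over all 67 probes of the members, 35 were higher and 11 lower past the adjusted threshold. Of all probes, 23.7% passed as higher and 30.8% as lower. Called were 14 of the members' probes, or 20.9%, against 14.8% of all probes.

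Lists of marker genes differed between the tissues to different degrees. The mean of 10 neuronal markers was between 4.65 and 5.06 in cortex and between 4.19 and 4.63 in hippocampus, and that of 7 interneuron markers between 3.29 and 3.72 and between 2.57 and 2.99. The mean of 6 immediate early genes was between 1.55 and 3.80 in cortex and between 0.85 and 2.28 in hippocampus, that of 6 oligodendrocyte markers between 2.23 and 3.04 and between 2.47 and 3.54, and that of 4 choroid plexus markers between -4.18 and -1.58 and between -2.50 and 3.53. The ranges of the last 3 lists overlapped between the tissues. The mean of 4 endothelial markers overlapped too, at 0.37 to 1.18 in cortex and 0.12 to 1.04 in hippocampus. That of 6 astrocyte markers was higher in WT hippocampus (3.24 to 3.57) than in WT cortex (2.77 to 3.01). In APP/PS1 mice the astrocyte ranges overlapped. All of these lists were measured above background in each group apart from single choroid plexus genes. Their part in the members' tissue differences was not tested.

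Other genes of the same machinery also differed by region. Of 56 measured vesicle and release genes outside the members, 27 were higher and 17 lower in cortex, with the largest differences in Doc2b, a calcium sensor of spontaneous release, at -3.89, Rims3 at 2.14, Syt10 at -1.66, Doc2a at 1.61 and Synpr at -1.31. Of 37 further adhesion and scaffold genes, 18 were higher and 14 lower, led by the synaptic organiser Cbln2 at 3.01, Tanc1 at -2.44, Homer3 at -2.24, Lrrtm4 at -1.68 and Cbln4 at 1.65. Their medians were 0.11 and 0.00, against 0.22 for the members. Rbfox3, which encodes NeuN, was 0.35 higher in cortex, and Ppp1r9b, which encodes spinophilin, was 0.28 lower (log2 difference -0.28).

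Between the genotypes the members moved little. Taking each gene by its brightest probe, 0 of 37 were called between APP/PS1 H2O and WT H2O mice, where 1.48% of all probes were called in cortex and 0.378% in hippocampus. Under MSX-3 the count was also 0, where 1.42% and 0.315% of all probes were called. Over both agents it was 0 again, where 1.86% in cortex and 0.548% in hippocampus were called. By limma, 3 and 4 members had an unadjusted p under 0.05 on H2O in cortex and hippocampus, 1 and 2 under MSX-3, and 5 and 3 over both agents. The share of all probes at this unadjusted threshold is not given, so these counts alone do not show whether the members stand out. One gene, however, was called on a probe that was not its brightest, and another passed the adjusted threshold at a smaller fold.

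Syngr1, synaptogyrin 1, a vesicle membrane protein with a part in synaptic plasticity, was read by 2 probes that moved apart. On the probe listed under NM_009303 the 5 WT H2O cortex arrays read 0.68, 0.98, 1.003, 1.08 and 1.10, and the 6 APP/PS1 H2O cortex arrays ran from 2.37 over 2.75 to 3.07. The 5 WT MSX-3 cortex arrays read 0.63, 0.89, 0.90, 1.06 and 1.08, and the 6 APP/PS1 MSX-3 arrays ran from 2.65 over 2.89 to 3.11. Every APP/PS1 cortex array lay above every WT cortex array. The difference was 1.77 on H2O (SE 0.14, limma adjusted p = 2.10e-05), 1.96 under MSX-3 (SE 0.11, adjusted p = 1.47e-06) and 1.86 over both agents (SE 0.09, adjusted p = 2.33e-12).

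In hippocampus the same probe ran from 0.85 over 1.001 to 1.17 in WT H2O and from 1.55 over 1.86 to 2.11 in APP/PS1 H2O arrays, and from 0.83 over 1.16 to 1.52 in WT MSX-3 and from 1.78 over 1.96 to 2.24 in APP/PS1 MSX-3 arrays. The genotypes did not overlap here either, and the difference was smaller, 0.87 on H2O (SE 0.10, adjusted p = 0.00131), 0.86 under MSX-3 (SE 0.13, adjusted p = 0.00847) and 0.87 over both agents (SE 0.08, adjusted p = 2.63e-07). With the slide as a fixed block the hippocampal call was lost on H2O (0.74, adjusted p = 0.427) and under MSX-3 (0.81, adjusted p = 0.170). The genotype difference on H2O was 0.89 larger in cortex than in hippocampus (SE 0.17, adjusted p = 0.0191 for the genotype by tissue term, past which 0.272% of all probes were called), and no member passed on its brightest probe. This term lost its call without WT H2O mouse 258 (adjusted p = 0.0696) or 308 (adjusted p = 0.0707) and without APP/PS1 H2O mouse 259 (adjusted p = 0.0739) or 325 (adjusted p = 0.0508), at differences of 0.78 to 0.92.

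The brightest Syngr1 probe, listed under NM_207708, went the other way without passing. The WT H2O cortex arrays read 2.03, 2.60, 2.69, 2.77 and 2.98 and the APP/PS1 H2O arrays ran from 1.88 over 2.09 to 2.51, with overlap. The difference in cortex was -0.44 on H2O (limma adjusted p = 0.339), -0.31 under MSX-3 (adjusted p = 0.465) and -0.38 over both agents (adjusted p = 0.0854), and in hippocampus it was -0.15 over both agents (adjusted p = 0.758). With array weights it passed in cortex on H2O at -0.57 (adjusted p = 0.041), and the mean of both probes was called the other way, at 0.66 (adjusted p = 0.0134). With the group means removed, the 2 probes had a Pearson correlation of 0.02 over the 22 cortex arrays and of -0.15 over the 24 hippocampus arrays, which share the array, the slide and the RNA. Only 1 transcript start of Syngr1 is in the table used, the one whose window is printed above. Whether the probe under NM_009303 reads a transcript of its own was not tested.

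**Figure D4:**
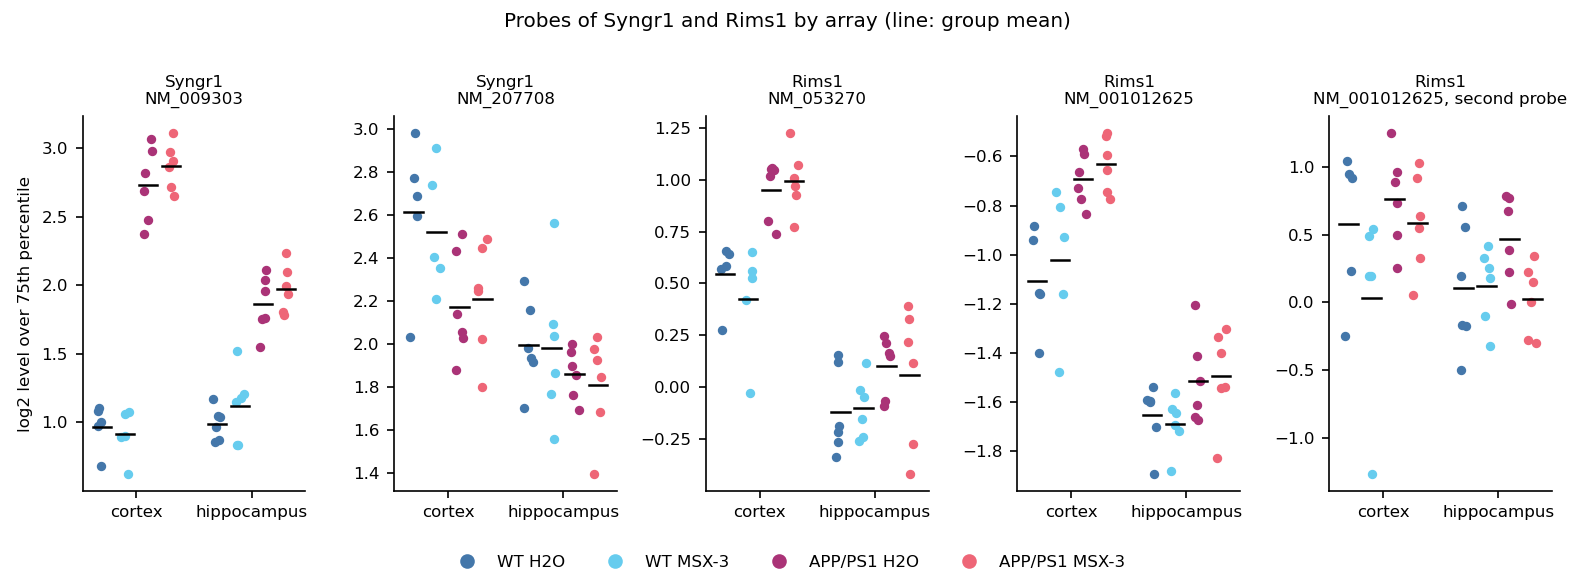
Log2 level over the array's 75th percentile for 2 probes of Syngr1 and 3 probes of Rims1, 1 point per array with the group mean as a line, in both tissues. In the Syngr1 probe listed under NM_009303 the APP/PS1 cortex arrays, at 2.37 to 3.11, stand clear of the WT cortex arrays, at 0.63 to 1.10, and the NM_207708 probe shows no such step.

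The Syngr1 difference was present within batches. Over both agents in cortex it was 1.501 and 1.93 within the 2 scan days and 1.83 to 2.04 within the 3 slides that held both genotypes, and in hippocampus APP/PS1 was higher within 6 of 6 such slides. Microglial markers moved with genotype in the same arrays. The mean of 6 of 7 listed microglial genes lay between 0.16 and 0.56 in WT and between 1.88 and 2.31 in APP/PS1 cortex, and in hippocampus at 0.50 to 0.90 in WT against group medians of 1.65 and 1.77, with a highest value of 1.99, in APP/PS1. The mean of 6 astrocyte genes lay between 2.77 and 3.01 in WT and between 3.31 and 3.69 in APP/PS1 cortex, and in hippocampus from 3.24 to 3.57 and from 3.30 to 3.68. These 6 microglial genes were above background on every array of the APP/PS1 groups, and their part in the Syngr1 difference was not tested. Syngr2, a relative of Syngr1 found widely outside neurons, was also higher in APP/PS1 cortex, by 0.69 on H2O (adjusted p = 0.000708), by 0.59 under MSX-3 (adjusted p = 0.00233) and by 0.64 over both agents (adjusted p = 3.15e-08), and by 0.22 in hippocampus over both agents (adjusted p = 0.0488).

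Rims1 was the only member to pass the adjusted threshold on its brightest probe, in cortex over both agents, where 4.42% of all probes passed at any fold. On the probe listed under NM_053270 the WT H2O cortex arrays read 0.27, 0.57, 0.58, 0.64 and 0.66, and the APP/PS1 H2O arrays ran from 0.74 over 1.03 to 1.05. The WT MSX-3 arrays read -0.03, 0.42, 0.53, 0.56 and 0.65, and the APP/PS1 MSX-3 arrays ran from 0.77 over 0.99 to 1.22. The genotypes did not overlap under either agent. The difference was 0.41 on H2O (SE 0.10, limma adjusted p = 0.0728), 0.57 under MSX-3 (SE 0.13, adjusted p = 0.054) and 0.49 over both agents (SE 0.08, adjusted p = 0.000334), a fold below 1.5. On H2O alone it passed without APP/PS1 H2O mouse 261 (0.45, adjusted p = 0.0484), with array weights (0.0176) and with an intensity trend (0.0404). Under MSX-3 alone it passed under 7 alternatives, with adjusted p from 0.00456 to 0.0497. With the scan day as a block it passed under neither agent alone (adjusted p = 0.166 and 0.267).

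It kept its direction within both scan days, at 0.34 and 0.48, and passed with the scan day (0.44, adjusted p = 0.00462) or the slide (0.65, adjusted p = 0.00597) as a block, but not with the 2 failed arrays put back (0.43, adjusted p = 0.187). Of the 2 probes listed under NM_001012625, one passed over both agents, at 0.40 (adjusted p = 0.00385), and the other gave 0.37 (adjusted p = 0.400). In hippocampus the 3 probes gave 0.19, 0.17 and 0.13 over both agents, with adjusted p = 0.593, 0.451 and 0.883. The difference between the tissues in the genotype effect on H2O was 0.18 on the brightest probe (adjusted p = 0.977), so that Rims1 is not shown to differ between cortex and hippocampus in its response to the transgenes.

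The members with the next smallest p values on H2O did not pass. Unc13a, whose product Munc13-1 primes vesicles, read -1.78, -1.68, -1.68, -1.40 and -1.29 in WT H2O cortex and ran from -2.20 over -1.93 to -1.76 in APP/PS1 H2O cortex, a difference of -0.40 (SE 0.12, limma adjusted p = 0.194). In hippocampus it ran from -2.22 over -1.88 to -1.48 in WT H2O and from -2.39 over -2.25 to -2.18 in APP/PS1 H2O mice, a difference of -0.39 (SE 0.12, adjusted p = 0.281). In both tissues the groups overlapped slightly, with the APP/PS1 arrays at the low end. With array weights Unc13a passed in cortex, at -0.51 (adjusted p = 0.0273). Rab3a in hippocampus ran from 6.22 over 6.28 to 6.37 in WT H2O and from 6.32 over 6.48 to 6.63 in APP/PS1 H2O mice, a difference of 0.18 (adjusted p = 0.398). Syt7 in hippocampus ran from -0.52 over -0.34 to -0.14 and from -0.79 over -0.56 to -0.38, a difference of -0.23 (adjusted p = 0.409).

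Under MSX-3, Syt7 in cortex read -0.40, -0.34, -0.05, -0.04 and 0.51 in WT mice and ran from -1.24 over -0.38 to -0.07 in APP/PS1 mice, a difference of -0.47 (SE 0.22, limma adjusted p = 0.428). In hippocampus it ran from -0.53 over -0.23 to -0.03 in WT and from -0.98 over -0.58 to -0.22 in APP/PS1 mice (difference -0.30, adjusted p = 0.959). The genotypes overlapped in both tissues. Shank1 in the same hippocampus comparison ran from -0.73 over -0.62 to -0.56 and from -0.94 over -0.84 to -0.58 (difference -0.18, adjusted p = 0.959), and Dlg4 from 2.29 over 2.37 to 2.49 and from 1.95 over 2.29 to 2.34 (difference -0.14, adjusted p = 0.959). Over both agents in hippocampus the smallest adjusted p values were those of Syt7 at -0.26 (0.147; 0.0495 without APP/PS1 MSX-3 mouse 267), Unc13a at -0.25 (0.344) and Dlg2 at -0.22 (0.602), all from limma.

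As a group the members leaned lower in APP/PS1 cortex on H2O, 32 of 37 with a median of -0.12, while 9283 of 16577 genes were lower with a median of -0.02. Within scan day 1, with 5 APP/PS1 and 2 WT arrays, 19 of 37 were lower with a median of -0.02, and within scan day 2, with 1 and 3 arrays, 33 were lower with a median of -0.24. Within the 1 slide that held both groups, with 2 APP/PS1 arrays and 1 WT array, 23 were lower with a median of -0.14. Other lists leaned the same way on H2O in cortex: 41 of 56 other vesicle and release genes were lower (median -0.08), as were 27 of 37 other adhesion and scaffold genes (median -0.04), 7 of 7 interneuron markers (median -0.20) and 5 of 5 cortical markers (median -0.12). Their part in the lean of the members was not tested. Among the loading transporters all 3 were lower, between -0.42 and -0.16, as were all 3 calcium sensors and all 3 adhesion genes, none of them past the threshold. Under MSX-3 in cortex 22 of 37 were lower with a median of -0.03. Within scan day 1, the only day with both of these groups, at 6 APP/PS1 and 3 WT arrays, 22 were higher with a median of 0.04. In hippocampus 24 of 37 were higher on H2O with a median of 0.04, and within scan day 1 28 were higher with a median of 0.13. In the same tissue 24 were lower under MSX-3 with a median of -0.06. In the genotype by tissue term on H2O, 28 of 37 were more negative in cortex with a median of -0.16, against -0.03 over all genes. Its smallest p values belonged to Vamp2 at -0.23, Rab3a at -0.21 and Slc32a1 at -0.27 (limma adjusted p = 0.977 for each).

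**Figure D5:**
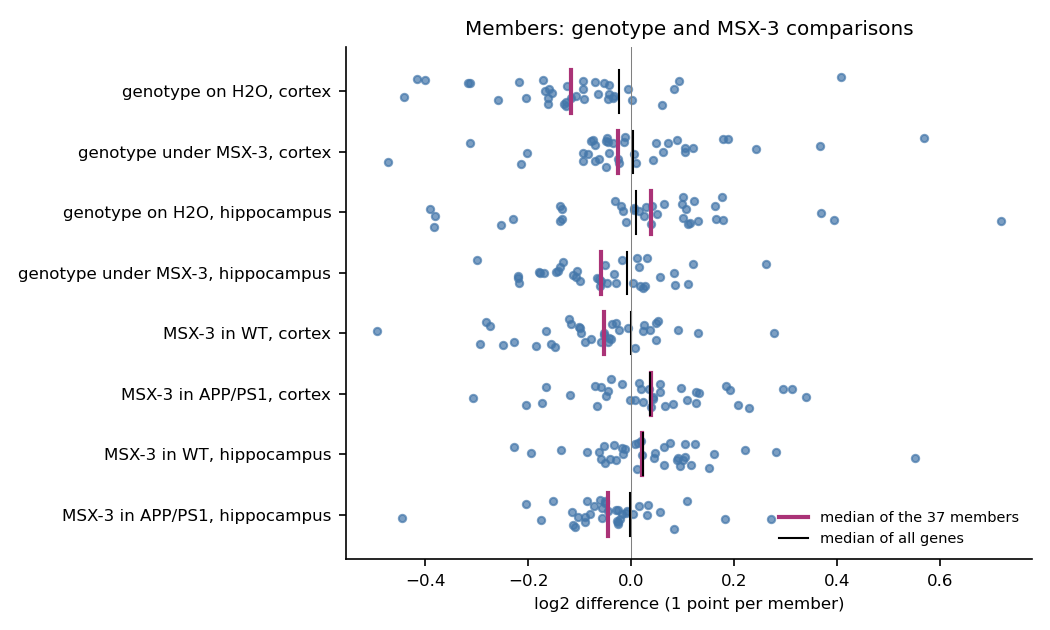
Log2 difference of the 37 members in the 4 genotype and the 4 MSX-3 comparisons, 1 point per member by its brightest probe, with the median of the members and of all genes as lines. The members' median lies at -0.12 for genotype on H2O in cortex and within 0.06 of 0 in the other 7 comparisons.

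Of 56 other vesicle and release genes 1 was called in APP/PS1 H2O cortex, Syngr2 above, where 1.48% of all probes were called. Ppfia4, a liprin of the active zone, was higher in APP/PS1 cortex by 0.50 under MSX-3 (adjusted p = 0.0242) and by 0.32 over both agents (adjusted p = 0.0072). Ppp1r9b and Rbfox3 passed in no genotype or MSX-3 comparison.

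MSX-3 called 0 of 37 members in WT and in APP/PS1 mice, in cortex and in hippocampus, where 0% of all probes were called in each of the 4 comparisons by limma. The members' differences lay between -0.49 and 0.28 in WT cortex, -0.31 and 0.34 in APP/PS1 cortex, -0.23 and 0.55 in WT hippocampus and -0.45 and 0.27 in APP/PS1 hippocampus, with a median standard error of 0.10 to 0.13. An unadjusted p under 0.05 was reached by 1, 2, 0 and 1 members in these comparisons, again without the share of all probes beside it. In WT cortex Camk2a, a subunit of the calcium/calmodulin kinase that is abundant in the postsynaptic density, read 4.74, 4.83, 4.84, 4.91 and 4.92 on H2O and 4.29, 4.46, 4.46, 4.63 and 4.94 under MSX-3. The highest MSX-3 array exceeded all H2O arrays and the other 4 lay below them, and the difference was -0.29 (SE 0.12, adjusted p = 0.564). With array weights Camk2a passed at -0.43 (adjusted p = 0.0216), in a fit where 6536 of 37680 probes did, and its difference was 0.048 with the slide as a fixed block.

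Cplx2 in WT cortex read 6.70, 7.36, 7.43, 7.51 and 7.71 on H2O and 6.15, 6.68, 7.05, 7.12 and 7.23 under MSX-3, a difference of -0.49 (SE 0.24, limma adjusted p = 0.564; -0.66 and 0.0269 with array weights). In APP/PS1 cortex it ran from 7.18 to 7.51 on H2O and from 6.62 to 7.39 under MSX-3, a difference of -0.31 (SE 0.14, adjusted p = 0.731). The groups overlapped in both. Syt1 in WT cortex read 6.65, 6.71, 6.75, 6.77 and 6.86 on H2O and 6.05, 6.31, 6.60, 6.68 and 6.74 under MSX-3 (difference -0.27, adjusted p = 0.564). Vamp1 in APP/PS1 cortex ran from 2.30 to 3.02 on H2O and from 2.90 to 3.18 under MSX-3, and Rab3a from 6.27 to 6.72 and from 6.59 to 6.94. Their differences were 0.29 and 0.19 (adjusted p = 0.731 for both), with the MSX-3 arrays towards the high end and overlapping the H2O arrays.

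In APP/PS1 hippocampus Rims1, on the probe that is brightest there, ran from -0.01 to 0.79 on H2O and from -0.30 to 0.34 under MSX-3. The difference was -0.45 (SE 0.16, limma adjusted p = 0.980), and the other 2 Rims1 probes gave -0.04 and 0.02. Syt1 and Cplx2 differed by -0.15 and -0.21 (adjusted p = 0.980 for both). In WT hippocampus the smallest p values were those of Vamp2 at 0.15, Dlg4 at 0.22 and Syt2 at 0.55, none with an unadjusted p under 0.05. The Syngr1 probe listed under NM_009303 differed between MSX-3 and H2O by -0.06 in WT cortex, 0.14 in APP/PS1 cortex, 0.13 in WT hippocampus and 0.11 in APP/PS1 hippocampus (smallest adjusted p = 0.766).

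Whether the drug acted differently in the genotypes was tested by the genotype by MSX-3 term, in which 0 members were called and 0% of all probes in either tissue, with 0 members at an unadjusted p under 0.05 by limma. In cortex the term was positive in 30 of 37 members with a median of 0.11, against 0.05 over all genes, and its smallest p values belonged to Slc17a6 at 0.50, Dlg2 at 0.31 and Syt2 at 0.46 (adjusted p = 0.744 for each). In hippocampus it was negative in 29 of 37 with a median of -0.08, against -0.02, led by Syp at -0.23, Rims1 at -0.47 and Rab3a at -0.17 (adjusted p = 0.897 for each). This term contains the H2O groups of the genotype comparison, so that its lean and the one in cortex on H2O rest on the same arrays.

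Within a tissue the members varied from array to array to different degrees together. With the group means removed, the 666 pairs of members had a median Pearson correlation of 0.17 over the 22 cortex arrays and of 0.12 over the 24 hippocampus arrays, and the median between members and all other genes was 0.03 and 0.02. Arrays share slides, scan days and their own scaling, so these values are a description. In cortex the pairs most alike were Slc17a7 and Syngr1 at 0.93, Slc17a7 and Dlg2 at 0.92, and Bsn and Syngr1 at 0.92, with Syngr1 on its brightest probe. In hippocampus they were Syp and Rab3a at 0.92, Syp and Syn1 at 0.88, and Cplx1 and Bsn at 0.87. Stx1a was most like Syngr1 in cortex (0.84) and Slc17a7 in hippocampus (0.73), Vamp1 was most like Cplx1 in both (0.83 and 0.87), and Syt2 was most like Slc32a1 in cortex (0.77) and Slc17a6 in hippocampus (0.76). The least alike pair in cortex was Snap25 and Sv2a, at -0.90. The mean of the 37 members per array had a correlation of -0.05 in cortex and 0.00 in hippocampus with the share of spots well above background.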

How the data were processed

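RNA from cortex and hippocampus of 24 mice was hybridised to 48 one-colour Agilent arrays, and the authors deposited the scanner's output of Agilent Feature Extraction 10.7.3.1, with a background-corrected processed signal intensity per spot. The authors also deposited a table of intensities per spot, which was not on the log2 scale. It equalled the scanner's processed signal in all 3022848 values (relative tolerance 1e-06). Here the log2 of the processed signal minus that of the array's 75th percentile was computed per array. Spots of a probe were averaged, control spots were left out, and a probe was kept where a group had 4 or more arrays with it well above background (37680 in cortex, 38128 in hippocampus, 36743 in both). A gene was taken by its brightest kept probe. Groups followed the labels. Differences were tested with limma 3.58.1 in R 4.3.3, with Benjamini-Hochberg adjustment over all kept probes. A call was an adjusted p under 0.05 and a fold of at least 1.5. Differences between the tissues used all groups, and the other fits used the groups compared.

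Values by array were given for members that passed, for the 8 with the largest difference between the tissues, or for the 3 with the smallest p. The members and lists were chosen with earlier results of these data known. The look at every probe of Syngr1, Rims1 and the other members, and at single scan days and slides, was added after the values were seen, as were the promoters shown. The test for genotype on H2O in cortex was run on simulated data with independent noise, which did not include slides or scan days. Cortex and hippocampus share mice: over 22 mice the deviations of a mouse's 2 arrays from their group means had a median correlation of 0.04 (-0.52 to 0.50). Alternatives covered background correction, normalization, filters, array weights, blocks for mouse, slide and scan day, the arrays left out, and leaving out each mouse. The start of treatment is given as 3 or 4 months in the sources and was not used. Some results on genes outside the members are not reported here.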

Additional observations from a re-analysis of the deposited data

Results flagged for a closer look

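Each group of 5 or 6 arrays was searched for a single array that stood apart by Dixon's 95% limit, over 192 groups of 21 members, and 14 were found. Chance finds about 1 in 20 groups. The arrays that stood low were Rims1 on a probe listed under NM_001012625 in WT MSX-3 cortex at -1.26, Rims1 on the NM_053270 probe in WT H2O cortex at 0.27, Cplx1 in WT H2O cortex at 4.99, Cplx3 in APP/PS1 MSX-3 cortex at -2.42, Dlg2 and Camk2a in APP/PS1 H2O hippocampus at 0.16 and 3.095, Syt2 in WT MSX-3 hippocampus at -6.08 and Dlg4 in APP/PS1 MSX-3 hippocampus at 1.95. Those that stood high were Dlg2, Cplx3 and Dlg4 in WT MSX-3 cortex at 1.56, -1.40 and 2.20, Homer1 in WT H2O cortex at 3.23, Unc13a in WT MSX-3 hippocampus at -1.56 and Slc17a6 in APP/PS1 H2O hippocampus at -0.12, on the array with the highest thalamic markers.

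For Syngr1 on the probe listed under NM_009303, the genotype difference on H2O was 0.89 larger in cortex than in hippocampus (limma adjusted p = 0.0191). This call did not hold without WT H2O mouse 258 or 308 or APP/PS1 H2O mouse 259 or 325 (limma adjusted p = 0.0508 to 0.0739). It was also lost with the failed arrays put back (0.77, limma adjusted p = 0.850). The brightest Syngr1 probe did not pass this term.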

How the results depend on the processing

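Counts of members called moved under these alternatives. In the comparison of the tissues the 9 called members became 27 without a minimum fold change and 14 probes when every kept probe was counted. When every kept probe was counted, 1 (Syngr1, NM_009303) in place of 0 was called for genotype on H2O, under MSX-3 and over both agents, in cortex and in hippocampus, and for genotype by tissue. With the mean over a gene's probes, 1 in place of 0 was called for genotype in cortex on H2O, under MSX-3 and over both agents, and Syngr1 turned to 0.66 (adjusted p = 0.0134) on H2O and 0.82 (adjusted p = 0.00089) under MSX-3. Over both agents in cortex 1 was also called without a minimum fold change and with the slide as a fixed block. With array weights 1 member was called for MSX-3 in WT cortex, where 6536 of all probes then passed the adjusted threshold.

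Directions turned for Camk2a under MSX-3 in WT cortex with the slide as a fixed block (0.048) and, with the 2 failed arrays put back, for Syngr1 in cortex on H2O (0.10) and under MSX-3 (0.14) and for Rab3a (0.91), Slc32a1 (0.68) and Vamp2 (0.16) in genotype by tissue. Those arrays also cost Cplx1 its call between the tissues (0.46, adjusted p = 0.162). The cause of these changes was not tested.

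Leaving out each mouse left the count of called members at 9 to 9 between the tissues and at 0 to 0 in the other comparisons. With the mouse as a replicate block 9 were called between the tissues and 0 for genotype by tissue. The slide as a fixed block could not be fitted for genotype under MSX-3 in cortex. For genes at the dim end, such as Syt2 and Cplx3, signal close to background limits the size of a difference.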
